A study of Homo sapiens with 6 samples.

Results

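Short chromatin regions that carried H3K79me3 and H3K79me2 together, in KDM2B-knockdown and in control 293T cells alike, numbered 1954 of 8899 merged peak regions (22.0%, exact binomial 95% interval 21.1 to 22.8%). They were found by merging the 4 deposited ChIP peak lists where peaks shared at least 1 bp, and by keeping merged regions that held a peak from every list and were shorter than 4000 bp. Another 1968 regions held all 4 peaks and were 4000 bp or longer, and these are called long regions here. The short regions thus made up 49.8% of the 3922 regions with both marks in both lines.

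The study used chromatin immunoprecipitation followed by sequencing (ChIP-seq) in 293T, an established line of human embryonic kidney origin into which the SV40 large T antigen was introduced. Cells stably expressing a short hairpin RNA against KDM2B (shKDM2B, the knockdown) were set against cells stably expressing a control hairpin (shCTL, the control). Each line gave 1 H3K79me3, 1 H3K79me2 and 1 input library, the last made without antibody; whether a line was 1 clone or a pool was not stated in the labels. The title states that KDM2B is an H3K79 demethylase, and the comparison asked where these marks lie when KDM2B is reduced; the level of KDM2B itself was not analysed here.

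Lysine 79 of histone H3 is methylated by DOT1L, an enzyme that works without a SET domain and adds methyl groups in separate steps, so that trimethylation builds on dimethylation. DOT1L travels with factors of transcription elongation, and both marks usually lie over the first part of transcribed genes, from the start site into the gene body. KDM2B belongs to the JmjC family of histone demethylases and carries a CXXC domain that binds unmethylated CpG islands.

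With 1 library per group there was no replicate check and no test between the lines, and every difference below is one between libraries. Filtered depth was 13144744 to 17044011 tags in the ChIP libraries and 11912494 and 12538191 in the knockdown and control inputs. The fragment length that the peak caller estimated was 126 bp for knockdown H3K79me3 and 180 bp for control H3K79me3. It was 210 bp for knockdown H3K79me2 and 148 bp for control H3K79me2, and its part in called widths was not tested. Tag size was 50 bp in both knockdown ChIP libraries, 46 bp for control H3K79me3 and 47 bp for control H3K79me2. Tag size thus differed between the lines, and its part in the ratios was not tested. The regions were selected on measured values, namely the presence of a called peak in every list and the merged length, so the levels and all comparisons of the lines within them are given as description. All positions are on hg19. An annotation of that build was not used here, so no region was assigned to a gene, and no sequence is shown.

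Short regions were simple in structure, and so were long ones. In 1887 of the 1954 short regions (96.6%, 95% interval 95.7 to 97.3%) each library contributed exactly 1 peak. The same held in 1881 of 1968 long regions (95.6%, 95% interval 94.6 to 96.4%). Merged length of the short regions had a median of 2796 bp, quartiles at 2232 and 3378 bp, and a range of 507 to 3999 bp. The H3K79me3 peak inside them had a median width of 1807 bp in knockdown and 1641 bp in control cells, and the H3K79me2 peak 2629 and 2354 bp. Peaks in short regions made up 28.3% of the knockdown H3K79me3 list and 35.1% of the control H3K79me3 list, and 31.6% and 29.0% of the H3K79me2 lists. They held less of the tags than of the peaks, namely 13.7% of the tags in knockdown H3K79me3 peaks, 13.2% in control H3K79me3 peaks, 21.8% in knockdown H3K79me2 peaks and 18.8% in control H3K79me2 peaks. The rule kept regions under the length limit, so a smaller share of tags goes with the selection.

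Short regions were called on every chromosome. On chromosome Y there were 7, of which 6 lay on an input peak and the other had a counterpart on chromosome X. Density was taken per Mb from the chromosome start to the end of its last merged region, without correction for unassembled sequence. Chromosome 19 held 170 short regions, the highest density at 2.88 per Mb, and chromosome 13 held 28, at 0.243 per Mb. The other gene-poor chromosomes 4, 18 and 21 had 52, 27 and 18. Among regions with both marks in both lines, the short ones made up 69.6% on chromosome X (96 of 138, 95% interval 61.2 to 77.1%), against 49.0% on the autosomes (1851 of 3775, 95% interval 47.4 to 50.6%). Single autosomes ran from 38.9% on chromosome 13 to 58.2% on chromosome 11, all below X. Without regions on input peaks the shares were 68.9% on X and 48.3% on the autosomes. Regions are not replicates, so the intervals are no test of X against the autosomes.

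Most short regions stood alone. The distance to the nearest other merged region had a median of 34187 bp, and in 87 regions (4.45%) a neighbour lay within 1000 bp, against 19 of 1968 long regions (0.965%) and 355 of the 4977 other merged regions (7.13%). Within 10000 bp the shares were 21.9% for short, 18.2% for long and 22.2% for other merged regions.

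A minority of short regions lay on a peak of the input libraries. An input peak of either line overlapped 97 short regions (4.96%, 95% interval 4.04 to 6.02%) and 38 long regions (1.93%, 95% interval 1.37 to 2.64%). It also overlapped 246 of the 4977 merged regions that lacked a peak from at least 1 list (4.94%, 95% interval 4.36 to 5.58%), a share close to that of the short regions. Of the 97 short regions, 81 lay on a peak of both inputs. Short regions on input peaks were concentrated at the low end of length, with 29 of the 35 regions under 1000 bp and 16 of the 66 regions from 1000 to below 1500 bp. Their part in the results was not tested beyond giving some values with and without them. Of the 7 short regions on chromosome Y, 6 lay on an input peak.

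Tag density was expressed as RPM per kb: tags in a library's own peak, per 1000000 filtered tags and per kb of that peak. Knockdown H3K79me3 ran from 1.73 to 24.1 RPM per kb over the short regions, with a median of 4.22. Control H3K79me3 ran from 1.34 to 26.2, with a median of 2.67. Knockdown H3K79me2 ran from 1.60 to 23.5 with a median of 3.999, and control H3K79me2 from 1.67 to 19.5 with a median of 4.43. Regions of the 4 libraries overlapped widely in density, and control H3K79me3 stood apart at the low end: it was the lowest of the 4 libraries in 87.7% of the short regions. Control H3K79me2 was the highest in 51.6%, knockdown H3K79me3 in 32.5%, knockdown H3K79me2 in 273 of the 1954 regions and control H3K79me3 in 1.89%.

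**Figure D1:**
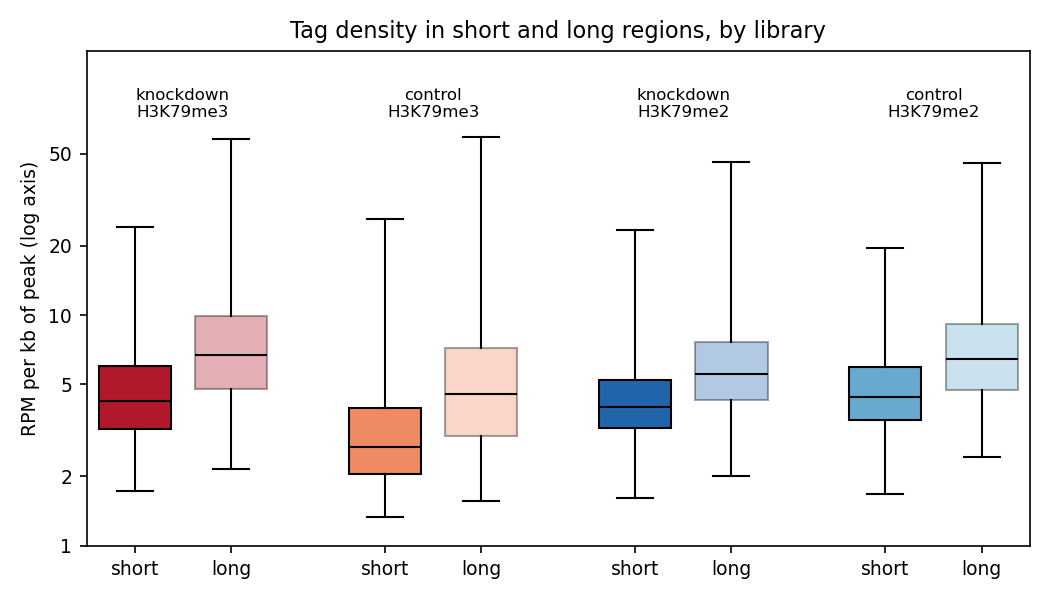
Tag density in RPM per kb of peak, on a log axis, in short regions (1954) and long regions (1968) for each ChIP library. Boxes give the median and quartiles over regions, and whiskers the lowest and highest region; short regions sit below long ones in every library, and control H3K79me3 is lowest among the short boxes, with a median of 2.67.

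Long regions were denser in every library. Their medians were 6.69 RPM per kb for knockdown H3K79me3, 4.53 for control H3K79me3, 5.56 for knockdown H3K79me2 and 6.44 for control H3K79me2. The authors' fold enrichment, which the caller sets against the surroundings within the same library, ran the other way. Its medians were 8.43 in short against 5.55 in long regions for knockdown H3K79me3, and 7.37 against 5.31 for control H3K79me3. For H3K79me2 they were 6.45 against 4.38 in knockdown and 7.17 against 4.81 in control cells. The caller took its background over 10000 bp, of which a long region fills more than a short one; the part of this in the order was not tested. The rank of a short region was similar across libraries: Spearman's rho of RPM per kb over the 1954 regions was 0.860 between knockdown and control H3K79me3 and 0.882 between knockdown and control H3K79me2. These are descriptions across regions of the same libraries and not across replicates.

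H3K79me3 was higher in knockdown than in control cells over nearly all short regions. The median number of tags was 125.5 in the knockdown and 75 in the control library. The log2 ratio of RPM per kb, knockdown over control, had a median of 0.59, a 1.51-fold difference, with quartiles at 0.40 and 0.80 and a range of -1.37 to 1.58. It was above 0 in 1899 of 1954 short regions (97.2%), beside 96.9% of the 5066 regions of any length with an H3K79me3 peak in both lines. At least 1.5-fold higher were 999 short regions (51.1%, 95% interval 48.9 to 53.4%), beside 44.7% of those 5066, and at least 1.5-fold lower were 6, beside 0.178%, of which 1 lay outside input peaks. The rule used both lines, so nothing is read from these shares against the background.

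Counting error was large beside the difference in single short regions. The 95% interval of the H3K79me3 ratio, from the tags of both libraries alone, had a median half-width of 0.44 on the log2 scale in short and 0.22 in long regions. Beyond it, 1379 short regions (70.6%, beside 79.8% of all regions compared) were higher in knockdown cells and 16 (0.819%, beside 0.73%) were lower. Summed RPM, which also follows called width, gave a median log2 ratio of 0.68, with 91.6% of the regions higher. Against the median of 0.55 over all 3922 regions with 4 peaks, 55.9% of the short regions lay higher. The authors' fold enrichment gave a smaller difference, with a median log2 ratio of 0.19 and 74.8% of the regions higher.

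H3K79me2 was lower in knockdown cells over most short regions, by a smaller amount. The median number of tags was 140 in the knockdown and 169 in the control library. The log2 ratio of RPM per kb had a median of -0.18, quartiles at -0.34 and -0.01 and a range of -1.14 to 0.72. It was below 0 in 1486 regions (76.0%), beside 71.4% of the 5428 regions of any length with an H3K79me2 peak in both lines. At least 1.5-fold lower were 96 short regions (4.91%, beside 4.42%), and at least 1.5-fold higher were 7 (0.358%, beside 0.829%). Beyond counting error 508 short regions (26.0%, beside 30%) were lower and 34 (1.74%, beside 3.02%) higher. Against the median of -0.20 over the 3922 regions with 4 peaks, 54.2% of the short regions lay higher. The difference per kb moved with called width: the knockdown H3K79me2 peak was the wider in 70.7% of the short regions, and by summed RPM the median log2 ratio was -0.048, with 44.1% of the regions higher. Knockdown H3K79me2 was also the library with the longest estimated fragment and the fewest filtered tags, and the part of these in its widths was not tested.

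Counted by the sign of each ratio, the marks differed in opposite directions in most short regions. H3K79me3 was higher and H3K79me2 lower in knockdown cells in 1458 short regions (74.6%, 95% interval 72.6 to 76.5%), beside 77.7% of the 3922 regions with all 4 peaks. Both marks were higher in 441 short regions (22.6%, beside 19.8%), both lower in 28 (1.43%, beside 1.63%), and H3K79me3 lower with H3K79me2 higher in 27 (1.38%, beside 0.841%). Most regions of the last 2 classes lay on input peaks. Of the 1857 short regions outside input peaks, 8 (0.431%) had both marks lower, and 5 (0.269%) had H3K79me3 lower with H3K79me2 higher. With 1.5-fold required of each mark, 20 short regions had H3K79me3 higher and H3K79me2 lower (1.02%, beside 1.17%), 5 had both higher (0.256%, beside 0.204%) and 1 had both lower (0.0512%, beside 0.0255%). By summed RPM, H3K79me3 higher with H3K79me2 lower covered 51.0% of the short regions. With both ratios centred on the median of all regions with 4 peaks it covered 21.3%. Taken alone, H3K79me3 per kb was higher in 97.2% of the short regions and H3K79me2 lower in 76.0%. The joint share follows largely from these shares, so no link between the marks within a region is read from it.

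**Figure D2:**
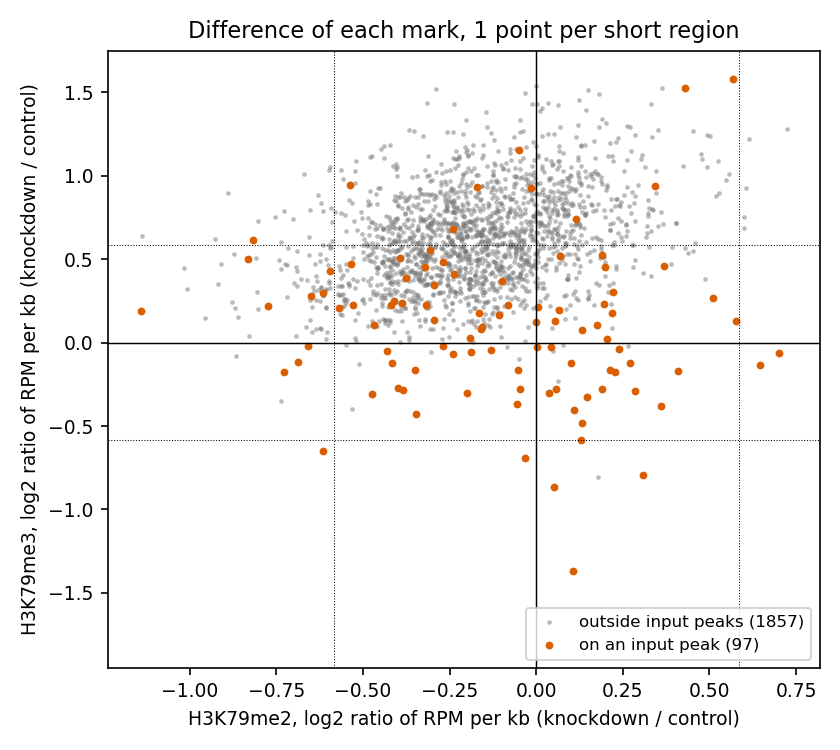
Log2 ratio of RPM per kb, knockdown over control, for H3K79me2 (x axis) and H3K79me3 (y axis), with 1 point per short region; solid lines mark 0 and dotted lines a 1.5-fold difference. The 1857 regions outside input peaks lie almost entirely above the horizontal 0 line and mostly left of the vertical one, and the 97 regions on an input peak spread around 0 on both axes.

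Regions on input peaks differed from the others in this comparison. Over the 97, the median log2 ratio of RPM per kb was 0.11 for H3K79me3 and -0.08 for H3K79me2, against 0.61 and -0.18 over the 1857 outside input peaks. In 55 of the 97 (56.7%, 95% interval 46.3 to 66.7%) and in 1844 of the 1857 (99.3%) knockdown cells had the higher H3K79me3. By summed RPM the median for H3K79me3 on input peaks was -0.37, with 27.8% higher. H3K79me3 was lower per kb in knockdown cells in 55 short regions (2.81%, beside 3.14% of all regions compared), and 13 of these lay outside input peaks.

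Within a line, the marks stood in a different order. In knockdown cells H3K79me3 exceeded H3K79me2 in RPM per kb in 1252 short regions (64.1%, 95% interval 61.9 to 66.2%), beside 65.6% of all 5136 knockdown regions with both marks. In control cells it did so in 73 (3.74%, 95% interval 2.94 to 4.67%), beside 5.22% of 4521. The median log2 ratio of H3K79me3 to H3K79me2 was 0.11 in knockdown and -0.69 in control cells over short regions. Over long regions it was 0.26 and -0.49, and H3K79me3 was the higher mark in 85.7% and 5.79%. The short-region counts include regions on input peaks. In control cells the median ratio was 0.165 over the 97 short regions on input peaks and -0.71 over the 1857 outside them. In knockdown cells it was 0.32 and 0.096. Each mark has its own antibody, so the ratio is not one of methyl groups.

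The differences between the lines moved with the density of the region. The 3922 regions with all 4 peaks were divided into 4 equal bands by their mean RPM per kb over the 4 libraries; the bands share these values with the ratios. In short regions the median log2 ratio of H3K79me3, knockdown over control, was 0.59 in the lowest band (766 regions), 0.67 in the second (548), 0.60 in the third (411) and 0.42 in the highest (229). For H3K79me2 it was -0.12, -0.17, -0.22 and -0.31 from the lowest to the highest band. The densest short regions therefore had the smallest excess of H3K79me3 and the largest deficit of H3K79me2 among the bands. The bands include regions on input peaks, and band values without them were not computed. Over the 97 short regions on input peaks the upper quartile of mean density was 6.90 RPM per kb, and the highest band began at 6.82. Their part in the band values was not tested. The ratio of H3K79me3 to H3K79me2 was higher in denser short regions, at -0.04, 0.09, 0.23 and 0.37 in knockdown cells and -0.77, -0.76, -0.61 and -0.37 in control cells.

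**Figure D3:**
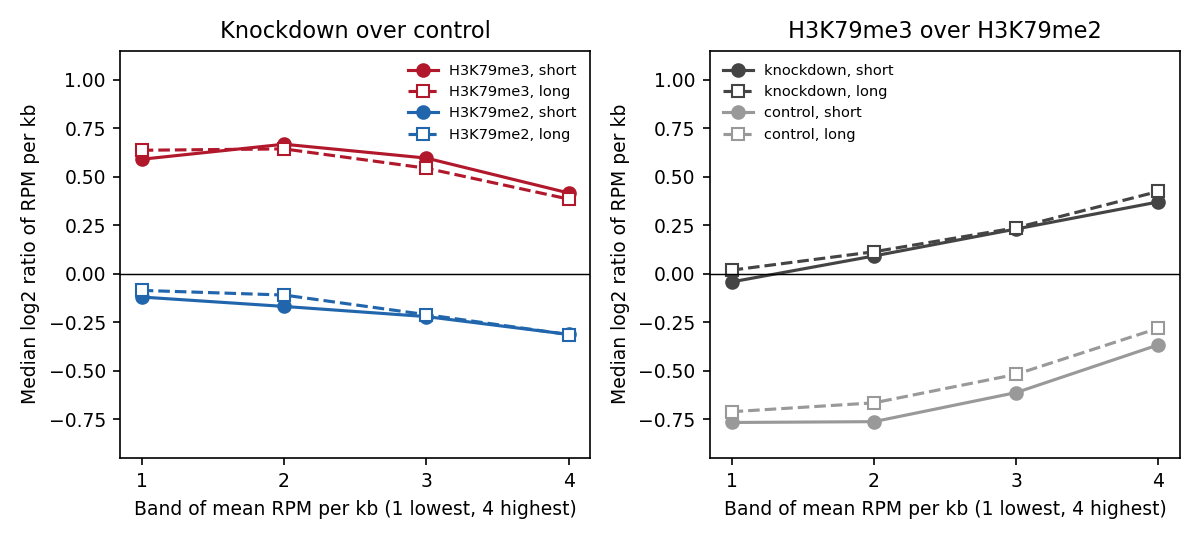
Median log2 ratios of RPM per kb in 4 bands of mean density, for short regions (filled) and long regions (open). Left, knockdown over control for each mark; right, H3K79me3 over H3K79me2 in each line; in the highest band the short regions stand at 0.42 for H3K79me3 and -0.31 for H3K79me2, and long regions follow a similar course.

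Short and long regions had close medians, and the sign of their small difference depended on density. Without bands the median for H3K79me3 was 0.59 in short and 0.51 in long regions, and for H3K79me2 -0.18 and -0.22. Within bands, long regions stood at 0.64, 0.64, 0.54 and 0.38 for H3K79me3, so that the short regions were lower in the lowest band and higher in the other 3. For H3K79me2 long regions stood at -0.09, -0.11, -0.21 and -0.31. Near the limit, the 68 regions of 3900 to 3999 bp had medians of 0.54 for H3K79me3 and -0.23 for H3K79me2, and the 67 regions of 4000 to 4099 bp had 0.54 and -0.20. The single-peak regions outside input peaks nearest to the limit lay at chr16:29827353-29831351, and chr12:510741-514738, inside it, and at chr9:125586950-125590949, and chr9:79005442-79009442, outside it. Their H3K79me3 ratios were 0.33, 0.84, 0.51 and 0.48, and their H3K79me2 ratios 0.02, -0.10, -0.18 and -0.16.

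Among short regions, the H3K79me3 difference was smallest in the shortest length classes, where regions on input peaks were most frequent. By length classes named by their lower end, the median log2 ratio was 0.03 under 1000 bp (35 regions), 0.40 from 1000 bp (66), 0.63 from 1500 bp (217), 0.62 from 2000 bp (398) and 0.63 from 2500 bp (440). It was 0.58 from 3000 bp (417) and 0.59 from 3500 bp to the limit (381). Outside input peaks the values from the shortest to the longest class were 0.27 (6 regions), 0.48 (50), 0.64, 0.63, 0.63, 0.58 and 0.59. H3K79me2 lay between -0.20 and -0.13 in all 7 length classes. Longer classes were denser: from 1000 bp the median was 2.70 RPM per kb for knockdown and 2.03 for control H3K79me3, and from 3500 bp it was 5.39 and 3.49.

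**Figure D4:**
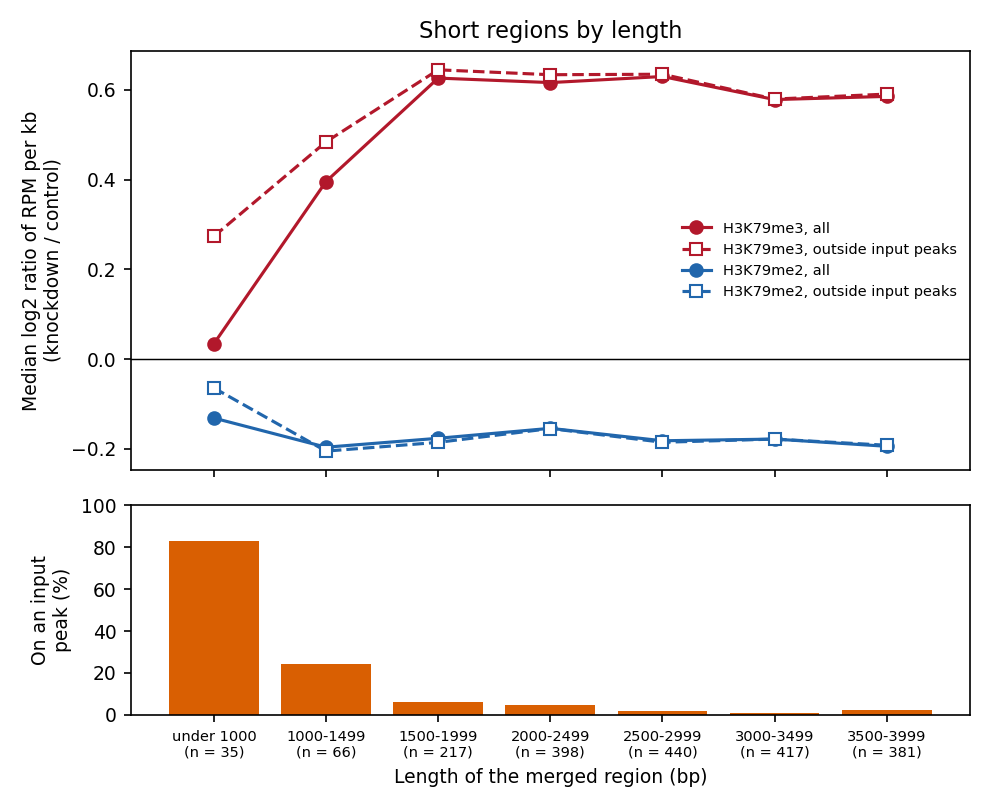
Short regions by length class. Upper panel, median log2 ratio of RPM per kb, knockdown over control, for all short regions (filled) and those outside input peaks (open); lower panel, the share on an input peak; the class under 1000 bp has 82.9% of its 35 regions on input peaks and an H3K79me3 median of 0.03.

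Across chromosomes the direction was the same for H3K79me3. On the 23 chromosomes with at least 10 short regions the median log2 ratio ran from 0.48 on chromosome 5 to 0.72 on chromosome 17. For H3K79me2 it ran from -0.30 on chromosome 18 to 0.07 on chromosome 21, the only one above 0, from 18 regions. Chromosome 19 stood at 0.68 for H3K79me3 and -0.14 for H3K79me2, and chromosome X at 0.50 and -0.15.

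The peaks of a short region were stacked on a common centre, mostly with H3K79me3 inside H3K79me2, and long regions had a similar arrangement. In 1539 of the 1887 single-peak regions (81.6%, 95% interval 79.7 to 83.3%) the knockdown H3K79me3 peak lay wholly within the knockdown H3K79me2 peak, and the reverse held in 20 (1.06%). In control cells the H3K79me3 peak lay within the H3K79me2 peak in 64.8% and the reverse held in 5.88%. The H3K79me3 peak had a median of 71.9% of the width of the H3K79me2 peak in knockdown and 73.9% in control cells. A stretch common to all 4 peaks existed in 1885 of the 1887 regions, with a median of 1498 bp or 57.5% of the region. The knockdown H3K79me2 peak reached both ends of the merged region in 39.0%, against 7.42% for control H3K79me2, 0.106% for knockdown H3K79me3 and 1.54% for control H3K79me3. In the 1881 single-peak long regions the H3K79me3 peak lay within the H3K79me2 peak in 85.8% in knockdown and 61.5% in control cells. Their common stretch had a median of 63.1% of the region, and the knockdown H3K79me2 peak reached both ends in 39.3%.

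**Figure D5:**
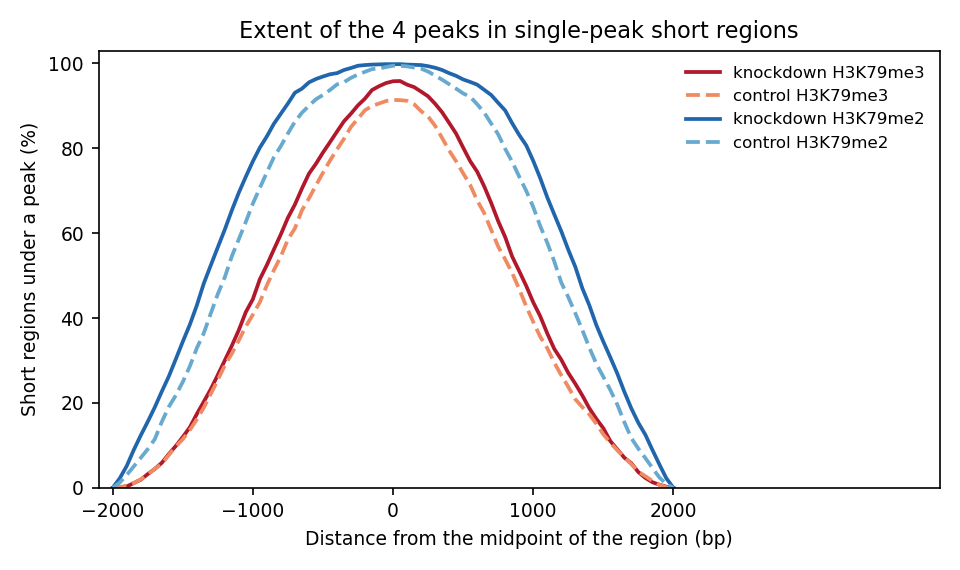
Percent of the 1887 single-peak short regions that lie under a peak of each library, by distance from the midpoint of the merged region in bp. At the midpoint the shares are 95.8% for knockdown H3K79me3, 91.4% for control H3K79me3, 99.8% for knockdown H3K79me2 and 99.5% for control H3K79me2, and the H3K79me3 curves are narrower than the H3K79me2 curves.

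Summits of the 4 libraries lay close together. The median distance between summits was 149 bp for H3K79me3 in knockdown against control, 151 bp for H3K79me2 in knockdown against control, 151 bp between the marks in knockdown cells and 148 bp between them in control cells. The summits of the marks and of the lines were thus about equally far apart, and the distances were of the size of the estimated fragments. All 4 summits lay within 200 bp in 24.6% of the 1887 single-peak short regions and within 1000 bp in 96.2%, against 17.7% and 82.1% of 1881 single-peak long regions. The median span of the 4 summits was 334 bp in short and 466 bp in long regions. The length limit itself bounds the distance between summits in short regions, so closer summits there are not read as a result.

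Single regions are described by a fixed rule among the 1798 single-peak short regions outside input peaks, with at least 30 tags of the mark in each line, which 1572 met for H3K79me3 and 1783 for H3K79me2. The extremes of many noisy ratios are shown, so they are descriptions. The highest H3K79me3 ratio lay at chr19:51228268-51230193, with 5.77 RPM per kb in knockdown and 1.99 in control cells, from 122 and 38 tags, a log2 ratio of 1.54 (counting interval 1.00 to 2.10). Its H3K79me2 stood at 4.70 in both lines. Here H3K79me3 was the lower mark in control cells and the higher one in knockdown cells.

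The next highest lay at chr2:71127668-71131301, with 4.88 RPM per kb in knockdown and 1.70 in control cells. Chromosome 3, 128997517 to 129001273, had 4.46 and 1.56, chr16:66586284-66590190, had 4.28 and 1.49, and chr19:56090357-56092498, had 5.90 and 2.09. The log2 ratios of these 4 lay between 1.49 and 1.52. H3K79me2 at the same regions differed less, with log2 ratios of 0.36, -0.29, 0.15 and -0.03 in that order. Control H3K79me3 in all 5 rested on 32 to 46 tags, not far above the minimum of 30.

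Among the same single-peak regions outside input peaks, the lowest H3K79me3 ratio with the minimum tags lay at chr5:27472252-27476167, with 5.86 RPM per kb in knockdown and 7.48 in control cells, from 366 and 481 tags, a log2 ratio of -0.35 (counting interval -0.55 to -0.15). H3K79me2 there was also lower, at 5.09 and 8.49 RPM per kb, a log2 ratio of -0.74. This was the only 1 of the 5 lowest whose H3K79me3 interval lay below 0. The other 4 were at chr19:35998225-36001239 (-0.23), chr2:202098253-202101981 (-0.13), chr6:30689217-30690536 (-0.10), and chr22:24235845-24239139 (-0.08).

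Under the same rule the highest H3K79me2 ratio lay at chr8:145546971-145550527, with 5.76 RPM per kb in knockdown and 3.49 in control cells, from 242 and 193 tags, a log2 ratio of 0.72 (counting interval 0.45 to 1.01). H3K79me3 was higher there as well, at 4.90 and 2.02 RPM per kb. The next were chr12:6875457-6878374 (0.61), chrX:54520348-54522450 (0.61), chr11:47444292-47448097 (0.60), and chr3:9883808-9885873 (0.56). H3K79me3 was higher in knockdown cells in all 5, with log2 ratios from 0.76 to 1.28. At the chromosome 11 region the summed H3K79me2 ran the other way, at 17.9 RPM in 2092 bp in knockdown and 21.2 RPM in 3765 bp in control cells.

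Under that rule the lowest H3K79me2 ratio lay at chr19:3571300-3574146, with 3.66 RPM per kb in knockdown and 8.06 in control cells, a log2 ratio of -1.14 (counting interval -1.49 to -0.78). The called peak there was 2847 bp wide in knockdown and 1023 bp in control cells, and summed H3K79me2 ran the other way, at 10.4 RPM in knockdown and 8.24 RPM in control cells, a log2 ratio of 0.34 whose counting interval of -0.02 to 0.69 spanned 0. The next lowest lay at chr8:92082295-92084484 (-1.02), chr22:39077041-39080161 (-1.01), chr21:45936695-45939789 (-0.93), and chr5:25189011-25190863 (-0.91). At chromosomes 8, 21 and 5 the summed RPM was also lower in knockdown cells, with log2 ratios of -0.56, -0.69 and -0.87, whereas at chromosome 22 it was 0.09. H3K79me3 was higher in knockdown cells in all 5, with log2 ratios from 0.32 to 0.64.

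The 5 densest of the 1798 single-peak short regions outside input peaks, by mean RPM per kb, differed in the same way as each other. Denser short regions lay on input peaks, up to a mean of 23.3 RPM per kb, and are not among these 5. They lay at chr1:203830282-203834187, chr11:118962825-118966451, chr2:200775828-200777934, chr20:21283233-21286250, and chr20:35233747-35237534. At the first, H3K79me3 stood at 15.7 RPM per kb in knockdown and 12.8 in control cells, from 913 and 760 tags, and H3K79me2 at 11.6 and 15.6, from 573 and 972 tags. Over the 5, H3K79me3 ratios were 0.27 to 0.36 and H3K79me2 ratios -0.45 to -0.30, and every counting interval lay on 1 side of 0. The shortest single-peak regions outside input peaks, at chr12:114309558-114310090, and chr22:25623926-25624707, rested on 12 to 31 tags per library, and their intervals spanned 0 for both marks.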

How the data were processed

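Human 293T ChIP-seq of H3K79me3 and H3K79me2, and inputs, was analysed from the peak lists of 6 libraries, 1 per group, grouped by their titles. Per the submitters' processing notes, reads were aligned to hg19 with Bowtie2, of a version not given in the sources used here. MACS 1.4.2 then called the peaks of each library, per the file headers, without a control file, at a p cutoff of 1e-05, with a regional background over 10000 bp. The deposited tags are whole-number counts that are not normalized. Fold enrichment, as deposited, is a ratio taken within 1 library. The column for significance was used as a deposited score, since its values begin at 50 and so stand for 10 times the quantity in its heading.

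The peaks of chromosomes 1 to 22, X and Y were joined with Python 3.11.15, pandas 2.3.3 and numpy 2.4.6. Tags were summed over each library's peaks in a region and divided by filtered tags and by the kb of those peaks. Exact binomial (Clopper-Pearson) 95% intervals came from scipy 1.17.1. For ratios they come from the split of the tags of 2 libraries and cover counting error only. For shares they treat regions as independent draws. Regions of single libraries are not replicates, so these intervals are no test between sets of regions. Regions called separately move with called width, so summed RPM is given too. No test was possible between single libraries; a region was called past 1.5-fold. The merging and ratio steps were tested on simulated regions with a single peak of the same width in each library. That check therefore did not cover unequal called widths. Single regions were named by extremes of the ratio per kb, mean density, length and distance from the limit. The members, lists and rules were chosen with earlier results of these data known. Planned gene lists were not used, for want of an hg19 annotation here.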

Additional observations from a re-analysis of the deposited data

Results flagged for a closer look

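The marks of short regions differed in opposite directions between the lines: the median log2 ratio of RPM per kb, knockdown over control, was 0.59 for H3K79me3 and -0.18 for H3K79me2. With a single library for each mark and line, this difference was not tested. By summed RPM the medians were 0.68 and -0.048. Long regions had medians of 0.51 and -0.22 per kb, so the pattern was not particular to short regions. Centred on the median of all regions with 4 peaks, the short regions stood at 0.039 and 0.026, and the sign for H3K79me2 was reversed.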

How the results depend on the processing

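No paired analysis was possible because each group has 1 library, and for the same reason no library could be left out. The number of short regions was 1156 with a limit of 3000 bp, 2625 with a limit of 5000 bp and 1420 with a score of at least 100. In the other settings it lay between 1857 and 1957. For H3K79me3 the median log2 ratio was 0.68 by summed RPM, 0.039 when centred on all regions with 4 peaks (whose median is 0.55) and 0.19 by the authors' fold enrichment; the share of regions higher was 91.6%, 55.9% and 74.8% in that order, 99.3% without regions on input peaks and 96.1% with the 3000 bp limit. For H3K79me2 the median was -0.048, 0.026 (reversed; the centre is -0.20) and -0.15 under those 3 scalings, -0.20 with a score of at least 100 and -0.15 when scaled by tags before duplicate removal; the share higher was 44.1%, 54.2%, 27.6%, 20.4% and 26.8%. H3K79me3 higher with H3K79me2 lower covered 51.0%, 21.3%, 53.8%, 78.2% and 71.6% in the same order, and 76.6% outside input peaks. Comparisons of short with long regions were added after the data were seen. Short minus long, H3K79me3 differed by 0.08 (0.11 by summed RPM, 0.14 by fold enrichment, and -0.046, 0.024 and 0.032 in the first, second and highest density bands) and H3K79me2 by 0.048 (0.085 by summed RPM, -0.019 by fold enrichment, and -0.034, -0.059, -0.0098 and 0.00077 from the lowest to the highest band). The cause of these shifts was not tested, except that centring sets the median of all such regions to 0. The median H3K79me3 ratio was above 0 in all 11 settings. Counting error limits single short regions.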

Other observations

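Among single-peak short regions outside input peaks with at least 30 tags of the mark in each line, the one with the lowest H3K79me3 ratio and the one with the fifth-lowest H3K79me2 ratio were neighbours on chromosome 5. They lay at 25189011 to 25190863 and 27472252 to 27476167, with no other merged region in the 2281388 bp between them. Their H3K79me2 log2 ratios were -0.91 and -0.74 and their H3K79me3 log2 ratios 0.47 and -0.35. This pair was picked out after its values were seen.

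The only short region on chromosome Y outside input peaks, at 2364900 to 2368753, had a counterpart on chromosome X at 2414912 to 2418872. The tips of both chromosomes carry the same sequence, so that a read from there can be placed on either. Tags were 143 on Y and 137 on X for knockdown H3K79me3, 51 and 49 for control H3K79me3, 75 and 62 for knockdown H3K79me2, and 229 and 198 for control H3K79me2. How the aligner divided such reads was not tested.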
